A study of Saccharomyces cerevisiae with 17 samples.

Results

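The 10 genes described here encode enzymes of the tricarboxylic acid (TCA) cycle of budding yeast, the route in mitochondria that oxidises acetyl units to carbon dioxide. They were chosen by name, with earlier results of these data known, and the rule uses no measured value. In the order of the reactions they are CIT1 (YNR001C), ACO1 (YLR304C), IDH1 (YNL037C), IDH2 (YOR136W), KGD1 (YIL125W), KGD2 (YDR148C), LSC1 (YOR142W), LSC2 (YGR244C), FUM1 (YPL262W) and MDH1 (YKL085W), which make 10 of the 6572 features of the deposited count files. All 10 passed the filter on low counts, as did 6297 features in all. RNA-seq libraries came from 4 groups with 2 biological replicates each, A and B. The brr6-1 strain yDBK168 and the wild-type strain YPH399 (WT) were each grown in galactose medium and in glucose medium. Brr6 sits in the membrane of the nuclear envelope. In brr6-1 lysine replaces an arginine of its putative zinc finger, and the genotype label adds the markers LEU2 and HIS3 to the allele. Both strains are MATα and share the alleles ade2-10, leu2-1, lys2-801, Trp1-63 and ura3-52. Each genotype is 1 strain, so effects of the mutation, of its markers and of any other difference between the strains cannot be told apart. All cultures grew at 30 °C in YEP medium to mid-log phase. Glucose cultures had 2% glucose, while galactose cultures grew in raffinose (2%) with sucrose (0.04%) before 2 h with galactose (2%). A comparison of the media therefore covers both changes of sugar, which cannot be told apart.

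In the cycle, citrate synthase joins acetyl-CoA to oxaloacetate, and the following enzymes oxidise the product stepwise back to oxaloacetate, passing electrons to the respiratory chain. In budding yeast glucose represses most genes of respiration, and the activating complex of HAP2, HAP3, HAP4 and HAP5 raises many of them when glucose is gone. CIT1, ACO1, IDH1 and IDH2 are also known targets of the retrograde factors RTG1 and RTG3, through which cells keep making 2-oxoglutarate when respiration is low.

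Gene counts ran from 15059271 to 17114156 in the brr6-1 libraries and from 18853431 to 21637381 in the WT libraries. The TCA cycle genes held 0.701 and 0.780% of these counts in brr6-1 galactose, 0.788 and 0.702% in WT galactose, 0.267 and 0.294% in brr6-1 glucose and 0.315 and 0.286% in WT glucose. No member had fewer than 432 counts in any library. Alignments that were not unique made 65.3 and 63.3% of HTSeq lines in brr6-1 glucose and 53.5 to 57.4% in the other 6 libraries, and their part in the results below was not tested. GAL1, the galactokinase gene, read the medium of each library as labelled, with 7652 to 17182 CPM in the 4 galactose libraries and 34.4 to 69.2 CPM in the 4 glucose libraries. BRR6 had 216 and 169 CPM in brr6-1 galactose against 24.4 and 19.1 CPM in WT galactose, and 98.5 and 103 CPM in brr6-1 glucose against 28.0 and 29.5 CPM in WT glucose. The point mutation cannot be read from counts per gene. Of 176 tested genes of chromosome III, 146 were higher and 0 lower in brr6-1 than in WT in glucose, and 137 higher and 3 lower in galactose. None of the 10 TCA cycle genes lies on that chromosome, but effects of this strain difference on them cannot be told apart from those of the mutation.

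Levels of the 10 transcripts spread widely, and their order differed between the media. Levels per length are given as TPM, the usual unit per length, computed here from counts and coding length, as mean ± SD of 2 libraries. TPM does not carry the scaling between libraries used for CPM, so strains are compared by CPM below. In glucose, for example, ACO1 had a mean of 701 TPM in brr6-1 and 664 TPM in WT, but 1185 and 1545 CPM. In both galactose groups MDH1, the mitochondrial malate dehydrogenase, stood first, with 2357 ± 126 TPM in brr6-1 and 1970 ± 134 TPM in WT. In both glucose groups ACO1, aconitase, stood first, with 701 ± 1.90 TPM in brr6-1 and 664 ± 80.1 TPM in WT. The lowest member was LSC1 in both brr6-1 groups (112 ± 18.8 TPM in galactose and 46.6 ± 9.34 TPM in glucose). In WT it was IDH2 in galactose (105 ± 8.41 TPM) and IDH1 in glucose (38.2 ± 4.17 TPM).

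The full order by mean TPM shows which neighbours could be separated. In brr6-1 galactose it was MDH1, LSC2 (1102), CIT1 (1080), ACO1 (988), FUM1 (429), KGD2 (286), KGD1 (261), IDH2 (153), IDH1 (132) and LSC1 TPM, where LSC2, CIT1 and ACO1 overlapped from one to the next, as did KGD2 and KGD1. In WT galactose it was MDH1, CIT1 (1529), ACO1 (991), LSC2 (899), FUM1 (345), KGD2 (279), KGD1 (209), LSC1 (148), IDH1 (116) and IDH2 TPM, with overlap between ACO1 and LSC2 and between KGD2 and KGD1. The remaining neighbours in these orders did not overlap between their libraries. In brr6-1 glucose it was ACO1, MDH1 (495), LSC2 (481), CIT1 (203), FUM1 (118), KGD1 (89.5), IDH2 (73.4), KGD2 (64.9), IDH1 (59.6) and LSC1 TPM, and only MDH1 and LSC2 overlapped. In WT glucose it was ACO1, MDH1 (511), LSC2 (429), CIT1 (342), FUM1 (113), KGD2 (62.8), KGD1 (62.2), LSC1 (45.5), IDH2 (40.5) and IDH1 TPM, with overlap between KGD2 and KGD1 and between IDH2 and IDH1. CIT1 thus stood next below MDH1 in WT galactose, and below ACO1, MDH1 and LSC2 in both glucose groups.

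**Figure D1:**
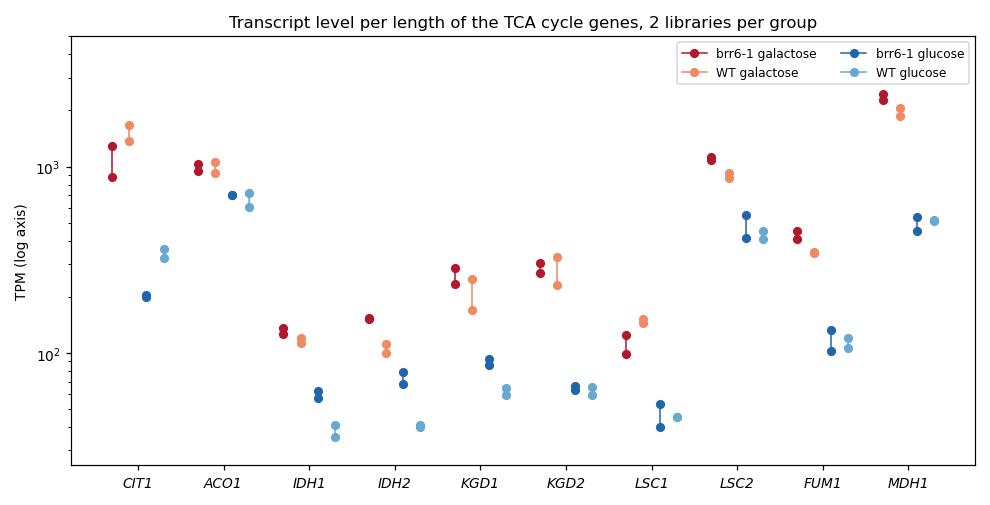
Level per length of the 10 TCA cycle transcripts (TPM, log axis) in the 2 libraries of each group, joined by a line. The galactose libraries lie above the glucose libraries of the same strain for every gene, and MDH1 in brr6-1 galactose, at a mean of 2357 TPM, is the highest level shown.

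Galactose against glucose asks how the enzymes of the cycle respond when the repressing sugar is absent. Transcripts of 9 of the 10 genes rose in galactose in brr6-1 and the same 9 rose in WT, and ACO1 was the exception in both. The median log2 fold change of the 10 genes was 1.21 in brr6-1, against 0.042 for all tested genes, and 1.30 in WT, against 0.10. In brr6-1 8.75% of all tested genes were higher in galactose and 7.26% lower, and in WT 24.3% were higher and 20.5% lower. Both galactose libraries lay above both glucose libraries for all 10 members in each strain, which was so for 31.9% of all tested genes in brr6-1 and 41.2% in WT. Among the 2743 genes in the members' range of mean level (5.87 to 10.53 log2 CPM), 8.35% were higher in brr6-1 and 15.5% in WT. Below, CPM are counts scaled to a common library size by TMM, and folds are log2 fold changes ± standard error from 1 edgeR quasi-likelihood fit to all 8 libraries (n = 2 per group), with Benjamini-Hochberg adjusted p over 6297 genes and a threshold of 0.05. In bulk RNA, fewer cells that express a gene and less of its RNA per cell cannot be told apart.

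CIT1 encodes the mitochondrial citrate synthase, which brings acetyl-CoA into the cycle. It had 790 and 1178 CPM in brr6-1 galactose against 207 and 216 CPM in brr6-1 glucose, and 1778 and 1621 CPM in WT galactose against 512 and 469 CPM in WT glucose. CIT1 rose by 2.22 ± 0.19 in brr6-1 (adjusted p = 2.8e-05) and by 1.79 ± 0.19 in WT (adjusted p = 7.9e-05), or 4.65-fold and 3.46-fold. The next highest folds, of MDH1 in brr6-1 and KGD2 in WT, lay within 1 standard error of it, so the order at the top is not settled. Without brr6-1 galactose replicate B the fold in brr6-1 was 1.90 for CIT1 and 1.99 for MDH1. ACO1 encodes aconitase, which turns citrate into isocitrate. It had 1393 and 1527 CPM in brr6-1 galactose against 1173 and 1198 CPM in brr6-1 glucose, and 1816 and 1766 CPM in WT galactose against 1654 and 1435 CPM in WT glucose. The libraries of the media did not overlap, but the folds were 0.30 ± 0.15 in brr6-1 (adjusted p = 0.208) and 0.21 ± 0.15 in WT (adjusted p = 0.258), and neither passed. Under scaling by library totals ACO1 was called higher in both strains (0.51 in each, adjusted p = 0.0289 in brr6-1 and 0.0133 in WT), and so it was under cyclic loess (0.71 and 0.83, adjusted p = 0.0077 in brr6-1 and 0.0016 in WT).

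IDH1 and IDH2 encode the subunits of the NAD-dependent isocitrate dehydrogenase, an allosterically regulated step. IDH1 had 92.9 and 87.5 CPM in brr6-1 galactose against 48.3 and 45.0 CPM in brr6-1 glucose, and 89.7 and 106 CPM in WT galactose against 43.7 and 38.6 CPM in WT glucose. IDH2 had 106 and 109 CPM in brr6-1 galactose against 54.0 and 64.1 CPM in brr6-1 glucose, and 81.2 and 101 CPM in WT galactose against 44.6 and 45.0 CPM in WT glucose. Both subunits rose about alike. IDH1 rose by 0.95 ± 0.13 in brr6-1 (adjusted p = 7.6e-04) and 1.25 ± 0.13 in WT (adjusted p = 7.7e-05). IDH2 rose by 0.86 ± 0.14 (adjusted p = 0.0021) and 1.02 ± 0.14 (adjusted p = 3.7e-04), 1.82-fold and 2.03-fold.

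KGD1 and KGD2 encode the dehydrogenase and the succinyltransferase components of the 2-oxoglutarate dehydrogenase complex. KGD1 had 449 and 557 CPM in brr6-1 galactose against 189 and 206 CPM in brr6-1 glucose, and 555 and 424 CPM in WT galactose against 178 and 199 CPM in WT glucose. KGD2 had 236 and 269 CPM in brr6-1 galactose against 62.9 and 67.9 CPM in brr6-1 glucose, and 334 and 264 CPM in WT galactose against 90.1 and 83.8 CPM in WT glucose. Both rose in both strains. KGD1 rose by 1.35 ± 0.17 in brr6-1 (adjusted p = 3.6e-04) and 1.38 ± 0.17 in WT (adjusted p = 1.7e-04). KGD2 rose by 1.95 ± 0.15 in brr6-1 (adjusted p = 9.3e-06) and 1.78 ± 0.14 in WT (adjusted p = 1.3e-05), or 3.85-fold and 3.44-fold.

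LSC1 and LSC2 encode the alpha and beta subunits of succinyl-CoA ligase, the step of the cycle that forms a nucleoside triphosphate directly. LSC1 had 77.8 and 62.2 CPM in brr6-1 galactose against 28.4 and 38.5 CPM in brr6-1 glucose, and 111 and 116 CPM in WT galactose against 44.2 and 45.4 CPM in WT glucose. LSC2 had 906 and 882 CPM in brr6-1 galactose against 383 and 512 CPM in brr6-1 glucose, and 874 and 915 CPM in WT galactose against 567 and 530 CPM in WT glucose. The beta subunit transcript was the more abundant of the pair in every library. LSC1 rose by 1.06 ± 0.16 in brr6-1 (adjusted p = 0.0016) and 1.34 ± 0.16 in WT (adjusted p = 1.8e-04). LSC2 rose by 1.00 ± 0.16 in brr6-1 (adjusted p = 0.0018) and 0.70 ± 0.16 in WT (adjusted p = 0.0051). The WT call of LSC2 was lost without WT glucose replicate A (0.69, adjusted p = 0.0548) and without WT glucose replicate B (0.59, adjusted p = 0.0940).

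FUM1 encodes fumarase, found in both mitochondria and cytosol, and MDH1 encodes the malate dehydrogenase that closes the cycle. FUM1 had 375 and 421 CPM in brr6-1 galactose against 108 and 142 CPM in brr6-1 glucose, and 369 and 416 CPM in WT galactose against 153 and 179 CPM in WT glucose. MDH1 had 1431 and 1565 CPM in brr6-1 galactose against 388 and 332 CPM in brr6-1 glucose, and 1526 and 1539 CPM in WT galactose against 508 and 516 CPM in WT glucose. In galactose the strains overlapped for both genes. FUM1 rose by 1.67 ± 0.16 in brr6-1 (adjusted p = 6.0e-05) and 1.24 ± 0.16 in WT (adjusted p = 2.6e-04). MDH1 rose by 2.06 ± 0.15 in brr6-1 (adjusted p = 6.7e-06) and 1.58 ± 0.14 in WT (adjusted p = 3.0e-05), or 4.17-fold and 2.99-fold.

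**Figure D2:**
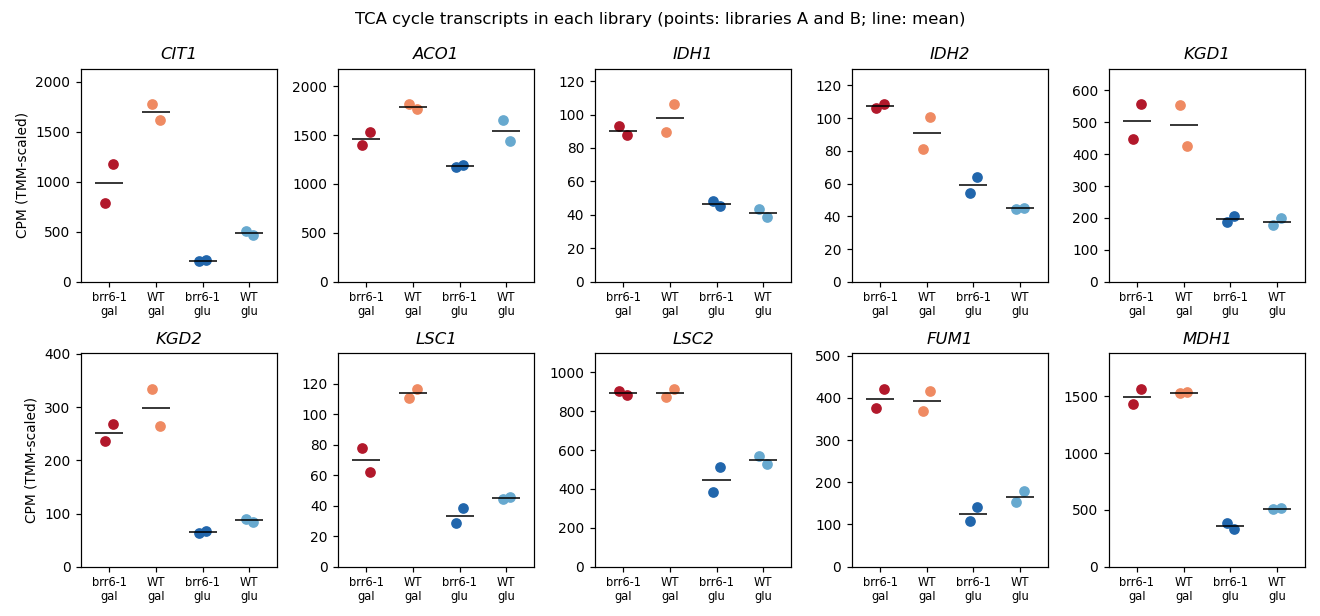
TMM-scaled CPM of each TCA cycle gene in the 8 libraries (points are libraries A and B, lines the mean of 2, and each axis starts at 0). CIT1 stands lower in brr6-1 than in WT in both media (790 and 1178 against 1778 and 1621 CPM in galactose), while MDH1 overlaps between the strains in galactose and not in glucose.

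The order of the 10 folds was much alike in the strains. Across the members the log2 folds of brr6-1 and of WT had a Pearson r of 0.883 and a Spearman rho of 0.867, against 0.698 and 0.648 across all 6297 genes. The 2 sugar comparisons share no library, but they share the fit and the scaling, and genes are not independent replicates. The folds of the members ranged from 0.30 to 2.22 in brr6-1 and from 0.21 to 1.79 in WT.

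In glucose, brr6-1 against WT asks which enzymes of the cycle differ between the strains under the repressing sugar. CIT1 fell 2.32-fold and MDH1 1.42-fold in brr6-1, KGD2 was also called lower and IDH2 higher, and the other 6 members did not pass. Of all tested genes 16.7% were called higher and 19.5% lower. Among the 2743 genes of the members' range of level, 9.99% were higher and 33.4% lower, so that 3 of 10 lower is close to the share of genes of like abundance. The median of the members was -0.39, against 0.031 for all tested genes and -0.22 in that range of level. It was -0.068 against 0.36 under library totals and -0.10 against -0.025 under cyclic loess. Both brr6-1 libraries lay below both WT libraries for 7 members (36.8% of all tested genes) and above them for 2 (38.3%).

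CIT1 had 207 and 216 CPM in brr6-1 glucose against 512 and 469 CPM in WT glucose, a change of -1.21 ± 0.19 (adjusted p = 0.0022). Only 0.937% of all tested genes had a lower fold than CIT1, and the call held under all 18 alternatives. MDH1 had 388 and 332 CPM in brr6-1 glucose against 508 and 516 CPM in WT glucose, a change of -0.51 ± 0.14 (adjusted p = 0.020). The libraries of the strains did not overlap for either gene. MDH1 did not pass without WT glucose replicate A (-0.58, adjusted p = 0.0764) or its replicate B (-0.56, adjusted p = 0.0866) or brr6-1 glucose replicate B (-0.41, adjusted p = 0.0655). Under library totals its fold was -0.19 (adjusted p = 0.259) and under cyclic loess -0.19 (adjusted p = 0.206).

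KGD2 had 62.9 and 67.9 CPM in brr6-1 glucose against 90.1 and 83.8 CPM in WT glucose (-0.41 ± 0.14, adjusted p = 0.0465). IDH2 had 54.0 and 64.1 CPM in brr6-1 glucose against 44.6 and 45.0 CPM in WT glucose (0.40 ± 0.14, adjusted p = 0.0492). Both calls lie at the threshold. KGD2 passed in 7 of 18 alternatives and IDH2 in 9. Each lost its call when either WT glucose library, either brr6-1 glucose library or either brr6-1 galactose library was left out, with adjusted p from 0.0595 to 0.175 for KGD2 and from 0.0551 to 0.268 for IDH2.

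The 6 members that did not pass in glucose were ACO1 (-0.38 ± 0.15, adjusted p = 0.0632), LSC1 (-0.42 ± 0.16, adjusted p = 0.0676), FUM1 (-0.41 ± 0.16, adjusted p = 0.0685), LSC2 (-0.29 ± 0.16), IDH1 (0.18 ± 0.13) and KGD1 (0.07 ± 0.16). The first 3 lay just past the threshold. IDH1 was called higher in 1 of 18 alternatives. ACO1 passed without WT galactose replicate A (-0.38, adjusted p = 0.0438) or B (-0.40, adjusted p = 0.0397). Without brr6-1 glucose replicate B, FUM1 (-0.62, adjusted p = 0.0197), LSC1 (-0.66, adjusted p = 0.0165) and LSC2 (-0.52, adjusted p = 0.0248) passed. The count of 4 called members was 1 when either WT glucose replicate, A or B, was left out and 2 under cyclic loess, and DESeq2 called 5 members, all lower.

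In galactose, the same strains were compared after 2 h of induction. CIT1 fell 1.73-fold and LSC1 fell 1.62-fold in brr6-1, and the other 8 members did not pass. Of all tested genes 8.29% were higher and 14.3% lower, and in the members' range of level 9.19% were higher and 18.2% lower, so 2 of 10 lower is near the background. By edgeR 0 members were called higher, 0 at an unadjusted p under 0.05 and 0 by DESeq2, while IDH2 was called higher under library totals (0.48, adjusted p = 0.0247). The median of the members was -0.076, against 0.0091 for all tested genes, and turned to 0.16 under library totals, where that of all genes was 0.25. The strains overlapped for 6 members, and both brr6-1 libraries lay below both WT libraries for 3 (34.0% of all tested genes) and above for 1 (32.0%).

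CIT1 had 790 and 1178 CPM in brr6-1 galactose against 1778 and 1621 CPM in WT galactose (-0.79 ± 0.19, adjusted p = 0.014). The brr6-1 libraries differed from each other by more than the WT libraries did. Without brr6-1 galactose replicate A the fold was -0.53 and did not pass (adjusted p = 0.122). LSC1 had 77.8 and 62.2 CPM in brr6-1 galactose against 111 and 116 CPM in WT galactose (-0.70 ± 0.16, adjusted p = 0.0126). It did not pass without WT galactose replicate B (-0.67, adjusted p = 0.0619), without brr6-1 galactose replicate B (-0.55, adjusted p = 0.0971) or under library totals (-0.46, adjusted p = 0.0663). Its partner LSC2 had a fold of -0.00 ± 0.16. MDH1 (-0.03 ± 0.14), KGD1 (0.04 ± 0.16) and FUM1 (0.02 ± 0.16) lay as close to 0. ACO1 (-0.29 ± 0.15), KGD2 (-0.25 ± 0.14), IDH1 (-0.12 ± 0.13) and IDH2 (0.24 ± 0.14) did not pass either. The count of 2 called members was 1 without WT galactose replicate B, without brr6-1 galactose replicate A and without brr6-1 galactose replicate B.

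**Figure D3:**
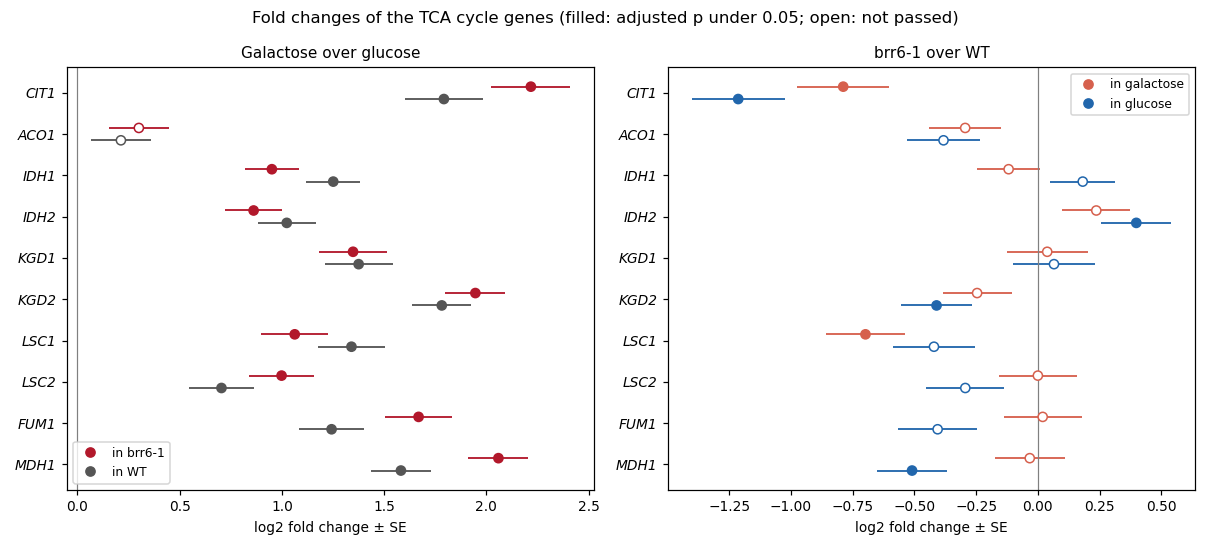
Log2 fold changes ± standard error of the 10 TCA cycle genes, galactose over glucose in brr6-1 and WT (left) and brr6-1 over WT in galactose and glucose (right). Filled points passed an adjusted p of 0.05. In the left panel 9 of 10 points are filled in each strain, and in the right panel 2 are filled in galactose and 4 in glucose, with CIT1 filled in both.

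Whether the effect of brr6-1 differs between galactose and glucose was tested as an interaction. By edgeR 0 of the 10 members passed, against 5.59% of all tested genes in either direction, and 0 passed by DESeq2 or by limma-voom with cyclic loess. At an unadjusted p under 0.05 there was 1, MDH1, with a difference of 0.48 ± 0.20 (unadjusted p = 0.0379, adjusted p = 0.167). CIT1 had 0.43 ± 0.26 (adjusted p = 0.345), FUM1 0.43 ± 0.22 (adjusted p = 0.264) and IDH1 -0.30 ± 0.18 (adjusted p = 0.345). The calls of MDH1, KGD2 and IDH2 in glucose and of LSC1 in galactose are therefore not shown to be particular to 1 medium.

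Subunits of 1 enzyme were compared within each library by the ratio of their TPM, with no test. Groups of 2 libraries often do not overlap. By CPM both brr6-1 libraries lay above both WT libraries for 32.0% of all tested genes in galactose and 38.3% in glucose. They lay below for 34.0% and 36.8%. No such share was computed for ratios. KGD1 over KGD2 was 0.870 and 0.947 in brr6-1 galactose, 0.759 and 0.735 in WT galactose, 1.37 and 1.39 in brr6-1 glucose and 0.904 and 1.09 in WT glucose. Both brr6-1 libraries lay above both WT libraries in each medium. LSC1 over LSC2 was 0.111 and 0.091 in brr6-1 galactose and 0.164 and 0.165 in WT galactose, and 0.096 and 0.097 in brr6-1 glucose against 0.101 and 0.111 in WT glucose. The ratio was lower in both brr6-1 libraries in each medium, and the gap was wider in galactose. IDH1 over IDH2 was 0.898 and 0.826 in brr6-1 galactose against 1.13 and 1.08 in WT galactose, with no overlap. In glucose it was 0.917 and 0.720 in brr6-1 and 1.00 and 0.879 in WT, and the strains overlapped.

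The mitochondrial enzyme was also set against its counterpart outside the mitochondrion. CIT1 over CIT2, the peroxisomal citrate synthase, was 3.89 and 3.55 in brr6-1 galactose, 2.11 and 1.61 in WT galactose, 0.269 and 0.388 in brr6-1 glucose and 0.470 and 0.498 in WT glucose. CIT2 was thus the more abundant transcript per length in the 4 glucose libraries and CIT1 in the 4 galactose libraries. MDH1 over MDH2, the cytosolic malate dehydrogenase, was 40.6 and 56.7 in brr6-1 galactose against 113 and 108 in WT galactose, and 14.5 and 17.6 in brr6-1 glucose against 38.7 and 37.5 in WT glucose. This ratio was lower in brr6-1 than in WT in both media without overlap. In galactose MDH1 itself overlapped between the strains by CPM, while MDH2 had 39.8 and 31.1 CPM in brr6-1 against 15.3 and 16.1 CPM in WT. In glucose MDH2 had 30.1 and 21.2 CPM in brr6-1 against 14.8 and 15.5 CPM in WT, and MDH1 was lower in brr6-1.

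**Figure D4:**
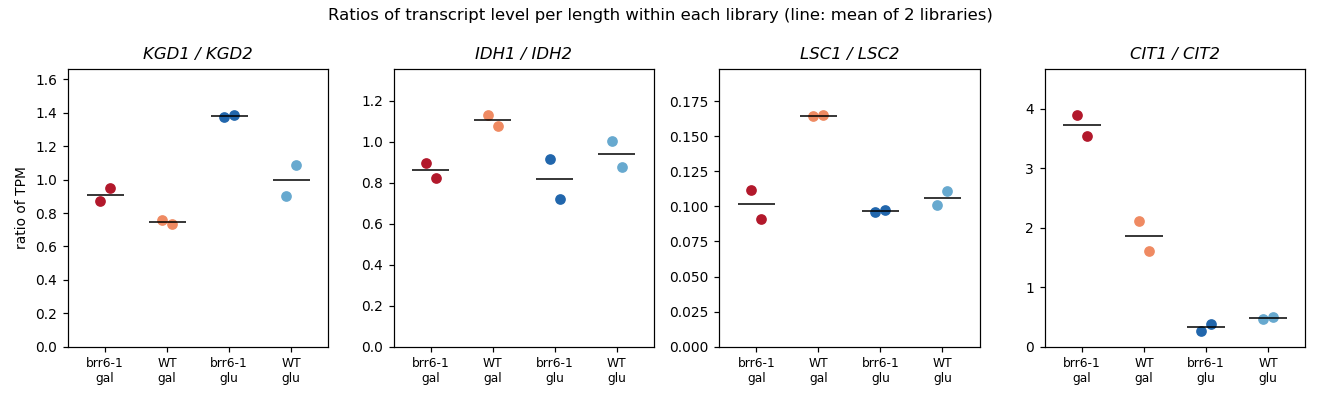
Ratio of TPM within each library for KGD1 over KGD2, IDH1 over IDH2, LSC1 over LSC2 and CIT1 over CIT2 (points are libraries A and B, lines the mean of 2, axes from 0). LSC1 over LSC2 is near 0.164 in WT galactose and between 0.091 and 0.111 in the other 3 groups, and CIT1 over CIT2 is above 1 only in galactose.

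Genes around the cycle were read from 5 lists. Succinate dehydrogenase, which feeds electrons from the cycle into the respiratory chain, has 4 subunit genes (SDH1 to SDH4) and further genes for its assembly. Of its 8 genes 6 rose and 0 fell in galactose in brr6-1, and 7 rose and 0 fell in WT, with median folds of 1.33 and 1.71. Among all tested genes 8.75% rose and 7.26% fell in brr6-1, and 24.3% rose and 20.5% fell in WT. SDH1, the flavoprotein subunit, rose by 2.79 ± 0.18 in brr6-1 (adjusted p = 2.5e-06) and 3.10 ± 0.18 in WT (adjusted p = 1.1e-06). SDH2, the iron-sulfur subunit, rose by 2.75 ± 0.21 in brr6-1 (adjusted p = 1.0e-05) and 2.70 ± 0.21 in WT (adjusted p = 1.0e-05). These folds are above that of every member of the cycle described above in the same strain. SDH4, a membrane anchor, rose by 2.70 ± 0.28 in brr6-1 and 1.88 ± 0.28 in WT. SDH4 also rose in brr6-1 against WT in galactose (1.33 ± 0.25, adjusted p = 0.0054) and had 0.52 ± 0.30 in glucose (adjusted p = 0.186).

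Isozymes in other compartments or of other use moved in both directions. Of 8, 3 rose and 2 fell in galactose in brr6-1, and 3 rose and 1 fell in WT. All tested genes moved in both directions too, 8.75% up and 7.26% down in brr6-1 and 24.3% up and 20.5% down in WT. IDP2, the cytosolic NADP-dependent isocitrate dehydrogenase, rose by 2.00 ± 0.20 in brr6-1 (adjusted p = 6.8e-05) and 2.15 ± 0.20 in WT (adjusted p = 3.5e-05). CIT3, a minor mitochondrial citrate synthase, rose by 1.12 ± 0.20 in brr6-1 and 2.39 ± 0.20 in WT. CIT2 had 195 and 319 CPM in brr6-1 galactose against 810 and 965 CPM in WT galactose, and 741 and 534 CPM in brr6-1 glucose against 1048 and 904 CPM in WT glucose. It fell in brr6-1 in galactose (-1.79 ± 0.24, adjusted p = 8.2e-04) and did not pass in glucose (-0.62 ± 0.24, adjusted p = 0.0647). CIT2 lies on chromosome III, where most genes were higher in brr6-1.

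IDP1, the mitochondrial NADP-dependent isocitrate dehydrogenase, had 252 and 303 CPM in brr6-1 galactose against 727 and 781 CPM in WT galactose, and 245 and 365 CPM in brr6-1 glucose against 1075 and 1028 CPM in WT glucose. It fell in brr6-1 in both media (-1.44 ± 0.19 in galactose, adjusted p = 7.0e-04, and -1.78 ± 0.19 in glucose, adjusted p = 3.8e-04). MDH2 rose in brr6-1 in galactose (1.17 ± 0.19, adjusted p = 0.0019), and CIT3 fell (-1.11 ± 0.18, adjusted p = 0.0025). In glucose MDH2 also passed (0.76 ± 0.19, adjusted p = 0.0135), but not without WT glucose replicate A (adjusted p = 0.106), WT glucose replicate B (adjusted p = 0.0908) or brr6-1 glucose replicate A (adjusted p = 0.0881).

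Of 13 genes for pyruvate dehydrogenase, pyruvate carboxylase, the pyruvate carrier and malic enzyme, 3 rose and 2 fell in galactose in brr6-1, and 3 rose and 1 fell in WT. The shares of all tested genes were 8.75% higher and 7.26% lower in brr6-1, and 24.3% higher and 20.5% lower in WT. In WT 3 of 13 higher is thus near the background. MPC3, a subunit of the mitochondrial pyruvate carrier used in respiratory growth, rose by 3.58 ± 0.19 in brr6-1 (adjusted p = 1.1e-06) and 2.81 ± 0.18 in WT (adjusted p = 1.9e-06). MPC3 fell in brr6-1 against WT in glucose (-0.96 ± 0.19, adjusted p = 0.0055), with 8.42 and 6.39 CPM against 16.2 and 12.5 CPM, and had -0.19 ± 0.16 in galactose (adjusted p = 0.410). Without brr6-1 glucose replicate B, or without brr6-1 galactose replicate B, the count in brr6-1 was 3 higher and 0 lower. Without WT glucose replicate B the count in WT was 1 higher and 1 lower, and without either brr6-1 glucose library it was 5 higher and 3 lower. It was 6 and 1 under library totals, 6 and 2 with the replicate block and 5 and 3 with the 4 compared libraries alone.

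Carriers of cycle intermediates across the mitochondrial membrane also moved in both directions. Of 7, 2 rose and 2 fell in galactose in brr6-1, and 2 rose and 3 fell in WT. All tested genes moved in both directions too, 8.75% up and 7.26% down in brr6-1 and 24.3% up and 20.5% down in WT. In WT 2 of 7 higher is thus near the background. ODC1, an oxodicarboxylate carrier, rose by 2.20 ± 0.11 in brr6-1 (adjusted p = 1.1e-06) and 1.57 ± 0.11 in WT (adjusted p = 4.8e-06). OAC1, the oxaloacetate carrier, had 34.8 and 35.4 CPM in brr6-1 galactose against 208 and 303 CPM in WT galactose, and 153 and 301 CPM in brr6-1 glucose against 1377 and 1525 CPM in WT glucose. OAC1 fell with brr6-1 in galactose (-2.86 ± 0.30, adjusted p = 1.7e-04) and in glucose (-2.68 ± 0.29, adjusted p = 3.9e-04). DIC1, the dicarboxylate carrier, fell as well (-1.38 ± 0.15 in galactose, adjusted p = 1.9e-04, and -1.18 ± 0.15 in glucose, adjusted p = 8.1e-04). YHM2, which exchanges citrate and 2-oxoglutarate, fell in glucose (-1.29 ± 0.17, adjusted p = 0.0011) and did not pass in galactose (-0.52 ± 0.17, adjusted p = 0.0501).

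Of 11 regulators, 3 rose and 1 fell in galactose in brr6-1 and 7 rose and 0 fell in WT. Among all tested genes 8.75% rose and 7.26% fell in brr6-1, and 24.3% rose and 20.5% fell in WT. Genes that rose in both strains included the activator gene HAP4 and the repressor gene MIG1. MIG1 had 14.8 and 12.9 CPM in brr6-1 galactose against 9.48 and 6.90 CPM in brr6-1 glucose. In WT it had 15.9 and 18.7 CPM in galactose against 5.43 and 5.21 CPM in glucose. HAP4, the regulated subunit of the activating complex, had 85.4 and 79.5 CPM in brr6-1 galactose against 15.1 and 10.0 CPM in brr6-1 glucose, and 88.6 and 66.3 CPM in WT galactose against 11.9 and 14.3 CPM in WT glucose. HAP4 rose by 2.72 ± 0.21 in brr6-1 (adjusted p = 1.1e-05) and 2.57 ± 0.21 in WT (adjusted p = 1.4e-05), and between the strains it had 0.09 ± 0.19 in galactose (adjusted p = 0.754) and -0.07 ± 0.22 in glucose (adjusted p = 0.828). HAP1, the heme-responsive activator, fell in brr6-1 in galactose (-1.86 ± 0.15, adjusted p = 4.2e-05), with 138 and 126 CPM against 430 and 534 CPM. Of the retrograde genes, RTG1 had -0.30 ± 0.14 with brr6-1 in galactose (adjusted p = 0.133) and RTG2 had -0.34 ± 0.12 in glucose (adjusted p = 0.0517), and neither passed. Without WT glucose replicate A, and likewise without B, the WT count was 4 higher and 0 lower. Without brr6-1 galactose replicate B the brr6-1 count was 2 higher and 0 lower.

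For brr6-1 against WT, most counts of the 5 lists moved with single libraries or with the processing. The lists hold 8 succinate dehydrogenase genes, 8 isozymes, 13 pyruvate entry genes, 7 carriers and 11 regulators. Of all tested genes 8.29% were higher and 14.3% lower in galactose, and 16.7% were higher and 19.5% lower in glucose. In galactose succinate dehydrogenase had 2 higher and 1 lower, isozymes 1 and 4, pyruvate entry 0 and 3, carriers 1 and 3, and regulators 0 and 2. Without brr6-1 galactose replicate A these were 1 and 0 for succinate dehydrogenase, 0 and 0 for pyruvate entry, 0 and 2 for carriers and 0 and 1 for regulators. Without WT galactose replicate B they were 1 and 0 for succinate dehydrogenase, 0 and 0 for pyruvate entry and 0 and 1 for regulators. Without brr6-1 galactose replicate B succinate dehydrogenase had 1 and 0, and without that library, WT galactose replicate A or either WT glucose library regulators had 0 and 1. In glucose succinate dehydrogenase had 1 higher and 0 lower, isozymes 2 and 2, pyruvate entry 0 and 3, carriers 1 and 4, and regulators 2 and 1. Without WT glucose replicate A, and likewise without B, these were 0 and 0, 0 and 1, 0 and 1, 0 and 3, and 0 and 0 in that order. Without brr6-1 glucose replicate A succinate dehydrogenase had 0 and 0, isozymes 0 and 1 and carriers 0 and 3. Without either WT galactose library succinate dehydrogenase had 2 and 0 and regulators 2 and 3. The total isozyme count in galactose moved by less than 1.5 times under all 18 alternatives. In galactose regulators had 0 and 1 under library totals, cyclic loess, removal of chromosome III genes, the filter of 100 counts, DESeq2, the replicate block and the fit to the 4 compared libraries, and pyruvate entry had 0 and 1 under library totals. In glucose succinate dehydrogenase had 2 and 0 under library totals and 1 and 1 under cyclic loess.

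**Figure D5:**
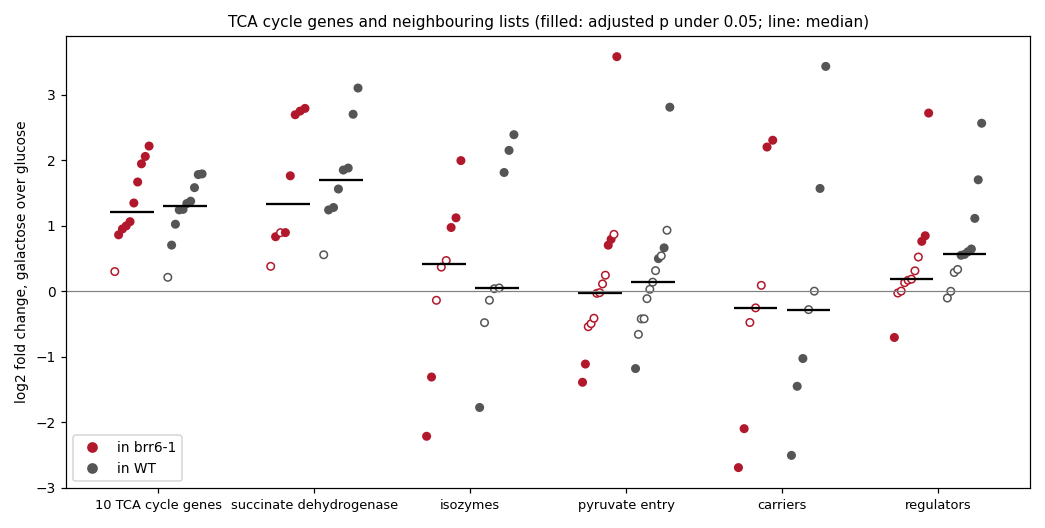
Log2 fold change, galactose over glucose, of the 10 TCA cycle genes and of each gene of the 5 further lists in brr6-1 and in WT (filled points passed an adjusted p of 0.05, lines are medians). The cycle and succinate dehydrogenase lie above 0 throughout, with medians of 1.21 and 1.33 in brr6-1 and 1.30 and 1.71 in WT, while the other lists spread to both sides.

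The genes most like the cycle over the libraries were found by the Pearson r of their log2 CPM with the mean of the 10 members, each centred over the 8 libraries. The 6 highest among the tested genes outside the cycle were ATP3 (0.997), NDE1 (0.996), YPL113C (0.995), SUC2 (0.994), ATP7 (0.993) and GCY1 (0.992). ATP3 and ATP7 encode subunits of the mitochondrial ATP synthase, NDE1 an NADH dehydrogenase on the outer face of the inner mitochondrial membrane, and SUC2 invertase, a classic glucose-repressed enzyme. The 8 libraries fall into 2 media, and the values are a description with no test. Among the members themselves, which enter the mean, r ran from 0.995 for KGD2 to 0.852 for IDH2 and 0.725 for ACO1. ACO1 had the smallest range over the libraries, 0.63 log2 CPM, against 3.10 for CIT1.

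The 10 genes lie on 8 chromosomes of the R64 assembly, and none overlaps another gene of the gene table. CIT1 (chromosome XIV, 629622 to 631061) and IDH1 (XIV, 557920 to 559002) share a chromosome, as do IDH2 (XV, 580250 to 581359) and LSC1 (XV, 593057 to 594046). LSC2 (VII, 978036 to 979319) has MPC3 as a direct neighbour. The remaining members are ACO1 (XII, 735212 to 737548), KGD1 (IX, 122689 to 125733), KGD2 (IV, 753675 to 755066), FUM1 (XVI, 47336 to 48802) and MDH1 (XI, 279123 to 280127). The series also lists 22 peaks of chromatin immunoprecipitation with FLAG-tagged fragments of Brr6, as the authors gave them. None of the 22 peaks names a TCA cycle gene. The peak nearest to a member lay 73.5 kb from CIT1, those of 8 others lay 145.5 to 940.4 kb away, and chromosome XVI, which holds FUM1, has no listed peak.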

How the data were processed

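Ribosomal RNA was removed, and a directional kit gave libraries for single-end sequencing, per the labels' protocols. The authors deposited raw read counts per gene for 8 libraries, made with cutadapt, TopHat and HTSeq on R64 per the submitters' processing notes. The strand setting of HTSeq was not given in the sources used here. HTSeq total lines stayed out of the library sizes. Reads outside genes were 23.4 to 37.5% of the reads in and outside genes, and ambiguous ones 0.0890% of lines or less. Alignments that were not unique, 53.5 to 65.3% of lines, were also unassigned and are not part of the first share. Of the deposited peak table, only positions and gene names were used, and 24 columns of signal per library were not used.

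Of 6572 IDs, 5898 matched the RefSeq gene table (R64), which gave coding lengths for TPM. Genes passed filterByExpr (minimum count 10), TMM scaling was used, and edgeR's quasi-likelihood test was fitted as 4 group means over 8 libraries, with 4 residual degrees of freedom. The standard error is |log2 fold change| divided by the root of the F statistic. Software was R 4.3.3, edgeR 4.0.16, limma 3.58.1, DESeq2 1.42.0, Python 3.11.15, matplotlib 3.10.9, numpy 2.4.6 and pandas 2.3.3. The code of the fit was run on simulated counts in which few genes changed, which does not test the scaling or the calls in these data. All 10 members are named; per list and comparison up to 4 genes that passed with the largest folds and up to 2 that did not were allowed, with HAP4, CIT2, the 6 genes most like the members, BRR6 and the GAL genes, and not all are printed; 1 gene of the isozyme list is not reported here. A gene named for 1 comparison may be given for the others. Members and lists were chosen with earlier results of these data known. Alternatives were DESeq2 size factors, library totals, cyclic loess with limma-voom, removal of chromosome III genes, no filter or a filter of 100 counts in 2 libraries, robust empirical Bayes, the Wald test of DESeq2, a fit to the 4 compared libraries alone, a replicate block, and leaving out single libraries. Counts for the 5 further lists under these alternatives were added after seeing the data.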

Additional observations from a re-analysis of the deposited data

Results flagged for a closer look

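None of the 10 TCA cycle genes passed the test of a difference in brr6-1 effect between media, but 3 genes of the further lists did, by the edgeR test of the difference itself. HAP1, the heme-responsive activator, had -1.86 ± 0.15 in galactose and -0.61 ± 0.14 in glucose, a difference of -1.25 (adjusted p = 0.0092), which did not pass when WT glucose replicate A (adjusted p = 0.0890) or B (adjusted p = 0.0999) was left out. CIT3, the minor citrate synthase, had -1.11 ± 0.18 in galactose and 0.16 ± 0.21 in glucose, a difference of -1.27 (adjusted p = 0.0326), which lost its call under cyclic loess and without any single library but WT galactose replicate B and brr6-1 glucose replicate A, with values from -1.37 to -0.92 and adjusted p from 0.0506 to 0.221. ODC1, the oxodicarboxylate carrier, had 0.45 ± 0.11 in galactose and -0.18 ± 0.11 in glucose, a difference of 0.63 (adjusted p = 0.0433), which lost its call under library totals, cyclic loess and the replicate block, and without any single library but WT galactose replicate B, with adjusted p from 0.0525 to 0.217.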

How the results depend on the processing

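No called value reversed under any of the 18 alternatives (17 for the difference). Of the members' single results, 178 of 180 kept direction and side of the threshold for galactose against glucose in brr6-1, 176 of 180 in WT, 175 of 180 for brr6-1 in galactose, 146 of 180 for brr6-1 in glucose and 170 of 170 for the difference. Scaling by library totals moved the median of all tested genes by more than 0.1, to 0.25 and 0.36 for brr6-1 in galactose and glucose and to 0.25 and 0.40 for galactose in brr6-1 and WT. The members' median was then 0.16 and -0.068 for brr6-1 in galactose and glucose and 1.59 for galactose in WT. Relative to all genes it was -0.084, -0.42 and 1.19, in place of -0.085, -0.42 and 1.19. That scaling shifts all genes of a library by nearly the same amount, so the relative values could hardly change. Of all calls 75.0 and 86.5% were then higher for brr6-1 in galactose and glucose, in place of 36.7 and 46.1%, 80.9 and 79.7% for galactose in brr6-1 and WT, in place of 54.7 and 54.3%, and 18.4% in place of 29.5% for the difference. Under cyclic loess 2 members were called in glucose, with a median of -0.10. Relative to all genes the members' median was then 0.023 and -0.075 for brr6-1 in galactose and glucose, in place of -0.085 and -0.42. It was 1.40 and 1.43 for galactose in brr6-1 and WT, in place of 1.16 and 1.19. DESeq2 called 617 genes for the difference, in place of 352. The log2 ratio of the members' summed level by TMM-scaled CPM, which changes both length and scaling, was -0.25 and -0.43 for brr6-1 in galactose and glucose, in place of 0.067 and 0.014 by TPM, and 1.19 and 1.01 for galactose in brr6-1 and WT, in place of 1.56 and 1.51. The causes were not tested.

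Leaving out 1 library at a time gave 1 to 2 called members for brr6-1 in galactose, 1 to 5 in glucose, 9 for galactose in brr6-1, 8 to 9 in WT and 0 for the difference. Medians ran from -0.12 to -0.070, -0.44 to -0.22, 1.097 to 1.36, 1.19 to 1.35 and 0.043 to 0.26 in the same order, and all genes called from 423 to 1801, 516 to 2694, 492 to 1189, 1548 to 3034 and 3 to 816. Whether the letters A and B pair the samples was not settled. Deviations of same-lettered libraries correlated at -0.043 to 0.38, highest between WT galactose and brr6-1 glucose, and such values cannot show that pairing is absent. With a replicate block the members called were 2, 4, 9, 9 and 0, and all genes 1545, 2359, 1018, 2820 and 306, with KGD2 lost (adjusted p = 0.0533) and FUM1 gained (adjusted p = 0.0268) in glucose. A planned search of promoter sequence was not run, since no sequence was used here.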
